A study of Mus musculus with 9 samples.

Results

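Heat shock proteins and the chaperones of the cytosol were followed in C2C12 cells, a mouse myoblast line that can be turned into muscle in culture, after depletion of the RNA-binding proteins MBNL1 or CUGBP1 (encoded by Mbnl1 and by Celf1, the current symbol of Cugbp1). The genes were chosen by symbol: those of the Hspa, Hspb, Dnaja, Dnajb and Dnajc families, Hsph1, Hsp90aa1, Hsp90ab1, Hspd1, Hspe1, the chaperonin subunits Cct2 to Cct8, Bag1 to Bag6, Hsf1 and Hsf2, without the endoplasmic reticulum (ER) genes Hspa5, Dnajb9, Dnajb11 and Dnajc3. Of 19938 genes named by probe sets with 1 symbol, 81 belonged to this set, on 103 probe sets, and 63 of the 81 passed the intensity filter that left 9864 genes for testing. Hspa1b, Hsp90ab1 and Hsf1 matched no probe set with a single symbol and were not analysed here. The symbols also take in proteins of mitochondria (Hspa9, Hspd1, Hspe1, Dnaja3, Dnajc15, Dnajc19) and of the ER membrane or lumen (Hspa13, Dnajb12, Dnajb14, Dnajc1, Dnajc10).

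The cells received Mbnl1 siRNA, Cugbp1 siRNA or a control siRNA, and total RNA was taken 0, 2.5 and 5 h after 5 ug/ml actinomycin D, a drug that blocks transcription, so every array at 2.5 and 5 h came from drug-treated cells. Each siRNA and time had 1 Affymetrix whole-transcript array, 9 in all, and the labels name neither replicates nor separate cultures. The error behind each p-value is therefore the scatter of single arrays around the sum of an siRNA effect and a time effect, and so few arrays limit its precision. The study asks whether the proteins affect the decay of mRNAs. Levels are log2 of robust multi-array average (RMA) intensity, a scale on which each transcript is measured only in relation to the rest of its array. The medians of the arrays lay between 104.92 and 113.01 on the linear scale, and correlations between arrays across probe sets between 0.98 and 0.995. Celf1 mRNA under Cugbp1 siRNA was at 30.9%, 22.1% and 21.6% of control at 0, 2.5 and 5 h, and Mbnl1 mRNA under Mbnl1 siRNA at 22.0%, 18.3% and 15.9%. Celf1 was also at 72.4%, 65.4% and 61.5% of control under Mbnl1 siRNA. Of 7 myoblast markers 6 passed the filter, among them Myod1, Myf5 and Des, as did 1 of 6 macrophage or leukocyte markers (Cd68), 0 of 5 adipocyte markers, 2 of 4 epithelial markers (Krt14, Cdh1) and 1 of 3 osteoblast or chondrocyte markers measured (Col2a1). The RNA is of whole cultures, in which fewer cells of a type and less RNA per cell cannot be told apart.

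Chaperones hold unfolded proteins and pass them on until they fold or are degraded. Hsp70 proteins do this in cycles of ATP hydrolysis, in which J-domain proteins (the Dnaj families) deliver clients and stimulate the ATPase, and BAG and Hsp110 proteins release the nucleotide. Small heat shock proteins hold clients without ATP and are abundant in muscle, chaperonins fold proteins inside a closed ring, and heat shock factors switch many of these genes on by binding repeats of the unit GAA in alternating orientation.

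To show that element, 6 promoter stretches of named members were taken from RefSeq (GRCm38.p6), read 5′ to 3′ on the strand of the gene, with capitals on the letters that match a search for GAANNTTC or TTCNNGAA. Hspe1 and Hspd1, which encode the co-chaperonin and the chaperonin of mitochondria, lie head to head and share a run of 18 capital bases (chr1:55088039-55088096, Hspe1 on the plus strand and Hspd1 on the minus strand, each the reverse complement of the other). The others are Hspb1 (chr5:135887782-135887849, plus), Dnaja4 (chr9:54699449-54699534, plus), Dnajb4 (chr3:152193846-152193879, minus) and Hsph1 (chr5:149636342-149636389, minus). All 6 stretches end before the annotated start of the transcript.
Hspe1: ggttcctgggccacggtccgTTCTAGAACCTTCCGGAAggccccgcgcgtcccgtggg
Hspd1: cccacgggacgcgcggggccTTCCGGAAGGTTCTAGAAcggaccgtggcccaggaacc
Hspb1: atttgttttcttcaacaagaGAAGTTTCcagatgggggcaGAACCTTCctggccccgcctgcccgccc
Dnaja4: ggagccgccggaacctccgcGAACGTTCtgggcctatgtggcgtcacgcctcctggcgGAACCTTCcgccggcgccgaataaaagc
Dnajb4: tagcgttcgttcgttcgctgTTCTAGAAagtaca
Hsph1: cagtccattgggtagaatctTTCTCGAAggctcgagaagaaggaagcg
In windows of 250 bases before to 50 bases after the start, the longer pattern GAANNTTCNNGAA, or TTCNNGAANNTTC on the other strand, was present in 0.603% of 32851 promoters. Among 66 members with a promoter in the table it was found in 4, which are Hspd1, Hspe1, Dnajb6 and Hsph1, a share of 6.06% against 0.662% of 27025 genes. The matches of Hspd1 and Hspe1 are the same bases of their shared run, so a count by gene takes that element more than once. In Hsph1 the longer match lay past the start, outside the stretch shown. The shorter pattern, which is contained in the longer, was found in 20 of the 66 members (30.3%), against 17.0% of genes and 15.1% of promoters. A match of letters is a description and not a measured binding site.

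After transcription arrest some members rose and others fell, and at 5 h 57.1% of those tested were called. At 5 h against 0 h, 21 of 63 rose and 15 fell (limma, adjusted p under 0.05 over all 9864 genes), against 35.6% of all genes higher and 32.8% lower, 68.4% in all. Their median log2 change was 0.056, beside 0.035 for all genes tested. Among the members the falls were larger than the rises: all 5 called members beyond 0.5 on the log2 scale fell, and the largest rise was 0.44. The same count was not made over all genes, so it is not shown to be particular to the members. When every array was instead shifted to the same median of 54 cytosolic ribosomal protein genes, the median of all genes at 5 h moved to −0.195. That of the members moved to −0.174, and their split became 2 higher and 40 lower. All genes thus shifted with the members, and the share of all genes called under this scaling was not counted for any comparison. All 15 falls remained called under this scaling, whereas of the 21 rises 2 remained called (Dnajc15 and Dnajc19), 8 stayed above 0 without being called, 9 lay at or below 0 without being called and 2 were called as falls (Cct8 and Hsp90aa1). At 2.5 h 13 members rose and 10 fell, against 23.1% and 24.2% of all genes, 47.4% in all, and medians of 0.042 for members and 0.033 for all genes. The ribosomal scaling gave 1 higher and 18 lower at 2.5 h, with medians of −0.081 for members and −0.09 for all genes. It called the 10 falls as falls too, and 1 of the 13 rises as a rise (Dnajc19).

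**Figure D1:**
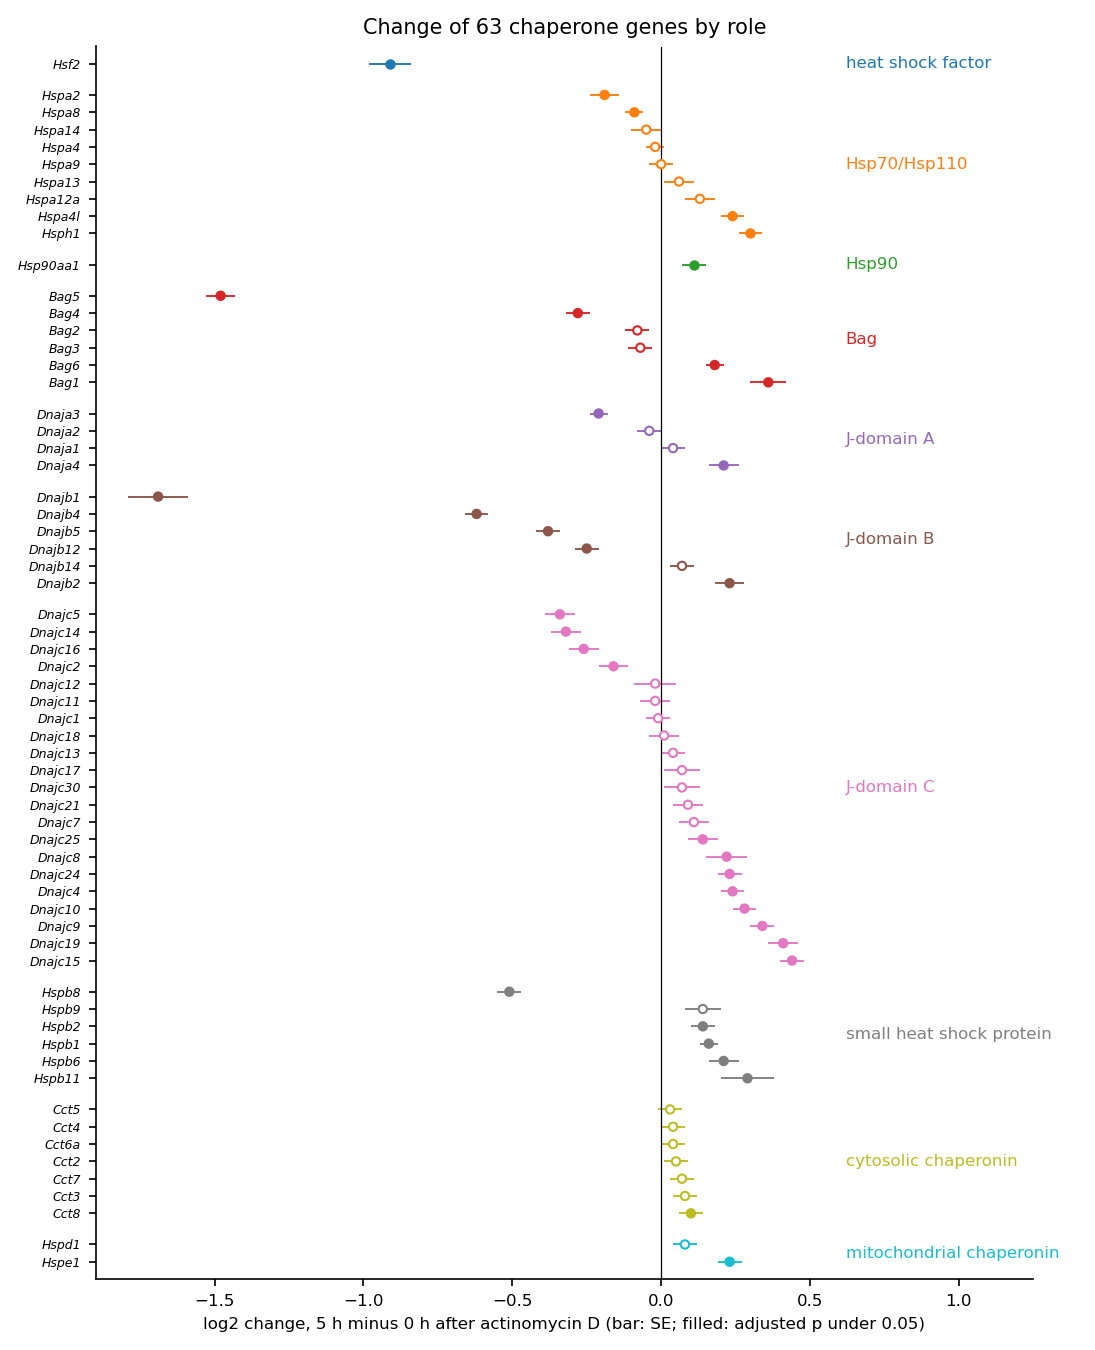
Log2 change from 0 to 5 h after actinomycin D for the 63 members tested, grouped by role, with bars for the SE and filled points for adjusted p under 0.05. Dnajb1, Bag5 and Hsf2 lie farthest to the left at −1.69, −1.48 and −0.91, and the largest rise is Dnajc15 at 0.44; with equal ribosomal protein medians 11 of the 21 rises lie at or below 0.

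Among regulators, Hsf2, which encodes a heat shock factor active in development and beside HSF1 under stress, fell. Its level was 9.91, 9.55 and 9.20 at 0, 2.5 and 5 h under Mbnl1 siRNA, 9.88, 9.37 and 8.93 under Cugbp1 siRNA, and 9.90, 9.24 and 8.83 under control siRNA. The 0 h arrays were nearly equal, every arm was lower at 2.5 h and again at 5 h, and the 3 times did not overlap. The log2 change at 5 h was −0.91 ± 0.07 (SE, n = 3 arrays per time), a 1.88-fold fall (limma adjusted p = 1.04e-05). At 5 h the arms kept 61.2% of the 0 h intensity under Mbnl1 siRNA, 51.6% under Cugbp1 siRNA and 47.5% under control siRNA.

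Class B J-domain proteins work with cytosolic Hsp70, and of the 6 tested 4 fell and 1 rose at 5 h, or 5 fell and 0 rose after scaling to the ribosomal proteins. Dnajb1, the best known heat-inducible partner of Hsp70, read 9.08, 8.0 and 7.35 at 0, 2.5 and 5 h under Mbnl1 siRNA, 9.41, 8.28 and 8.03 under Cugbp1 siRNA, and 9.51, 8.19 and 7.56 under control siRNA. Every 0 h array stood above every 2.5 h array, while the 5 h array under Cugbp1 siRNA (8.03) lay above the 2.5 h array under Mbnl1 siRNA (8.0). The change was −1.18 ± 0.10 at 2.5 h and −1.69 ± 0.10 at 5 h, a 3.22-fold fall (limma adjusted p = 2.88e-06). Its relative Dnajb4 measured 11.28, 10.90 and 10.73 under Mbnl1 siRNA, 11.50, 11.03 and 10.90 under Cugbp1 siRNA, and 11.43, 10.95 and 10.73 under control siRNA. All 3 arms were lower at each later time, with the 5 h level under Cugbp1 siRNA equal to the 2.5 h level under Mbnl1 siRNA, and the 5 h change was −0.62 ± 0.04 (adjusted p = 6.27e-06). Dnajb5 (−0.38 ± 0.04) and Dnajb12, a J protein of the ER membrane (−0.25 ± 0.04), fell less. Dnajb2, known from neurons, rose by 0.23 ± 0.05, a change that is −0.00 with equal ribosomal protein medians, and Dnajb14 did not pass the test at 0.07 ± 0.04 but fell with that scaling (−0.16).

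Of 6 BAG genes tested 2 rose and 2 fell at 5 h, or 0 rose and 4 fell after scaling to the ribosomal proteins. Bag5, which carries several BAG domains and acts on Hsp70, measured 8.95, 8.18 and 7.56 at the 3 times under Mbnl1 siRNA, 9.35, 8.40 and 7.79 under Cugbp1 siRNA, and 9.27, 8.24 and 7.78 under control siRNA. The times did not overlap, and 38.2%, 34.0% and 35.6% of the 0 h intensity was left at 5 h under Mbnl1, Cugbp1 and control siRNA. The fall was 2.78-fold, −1.48 ± 0.05 (limma adjusted p = 3.62e-07), and Bag4, a BAG protein bound to death receptors, fell by 0.28 ± 0.04. Bag1, a nucleotide exchange factor linked to the proteasome, was 10.58, 10.69 and 10.93 under Mbnl1 siRNA, 10.30, 10.64 and 10.79 under Cugbp1 siRNA, and 10.46, 10.64 and 10.70 under control siRNA. It was higher at each later time in every arm, the times did not overlap, and it rose by 0.36 ± 0.06 at 5 h (adjusted p = 0.000644), 0.13 and not called with equal ribosomal protein medians. Bag6, which handles tail-anchored proteins before membrane insertion, rose by 0.18 ± 0.03 as deposited and differed by −0.05 with that scaling. Bag3, the partner of HSPB8 in selective autophagy, was lower by 0.12 ± 0.04 at 2.5 h (limma adjusted p = 0.036), a call undone by leaving out any of 7 arrays. It differed by −0.07 ± 0.04 at 5 h (adjusted p = 0.13), and Bag2 was not called at any time as deposited. With equal ribosomal protein medians both fell at 5 h, Bag3 by 0.30 and Bag2 by 0.31.

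**Figure D2:**
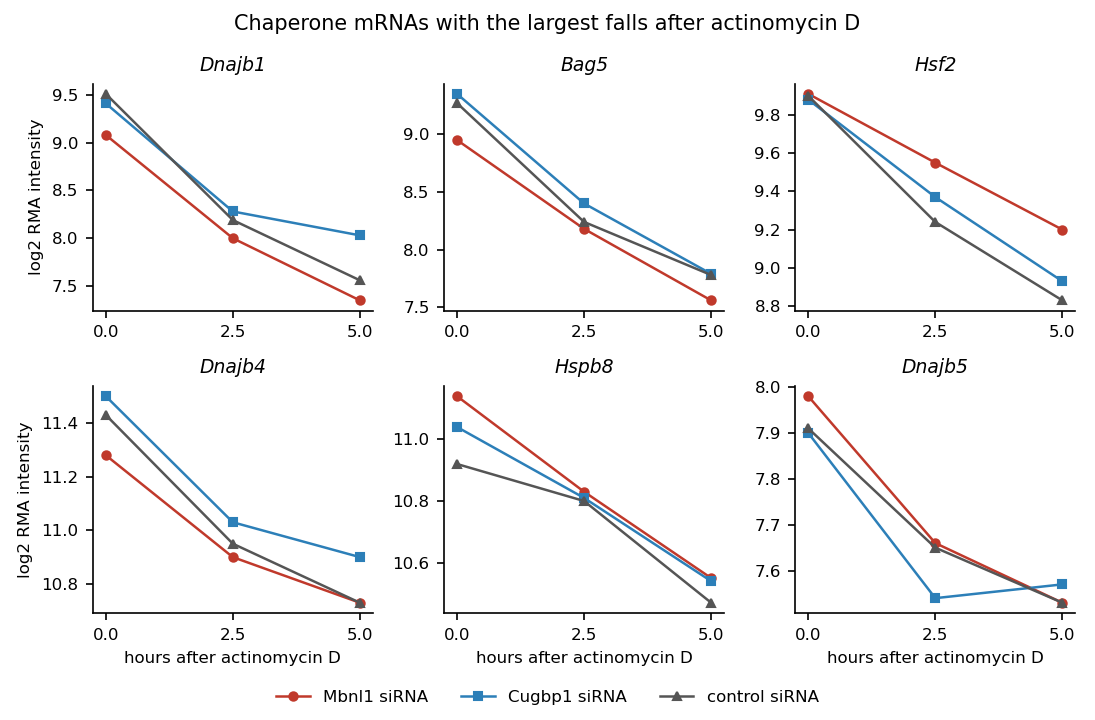
Log2 RMA intensity on each of the 9 arrays against hours after actinomycin D for the 6 members with the largest falls, 1 line per siRNA and 1 point per array; the vertical axes differ between panels and do not start at 0. Dnajb1, Bag5, Hsf2, Dnajb4 and Hspb8 are lower at 5 h than at 2.5 h in all 3 arms, and Dnajb5 under Cugbp1 siRNA reads 7.54 at 2.5 h and 7.57 at 5 h.

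Of 6 genes tested that were grouped as small heat shock proteins by their Hspb symbol, Hspb11 among them, 4 rose and 1 fell at 5 h. After scaling to the ribosomal proteins 0 rose and 1 fell. Hspb8, whose product acts with BAG3 in muscle, stood at 11.14, 10.83 and 10.55 at the 3 times under Mbnl1 siRNA, 11.04, 10.81 and 10.54 under Cugbp1 siRNA, and 10.92, 10.80 and 10.47 under control siRNA. The times did not overlap, and the fall at 5 h was −0.51 ± 0.04 (limma adjusted p = 2.66e-05). Hspb1, the actin-protecting Hsp27 of muscle, rose by 0.16 ± 0.03, Hspb6 by 0.21 ± 0.05 and Hspb2 by 0.14 ± 0.04. With equal ribosomal protein medians these 3 differed by −0.07, −0.02 and −0.09 and were not called. Hspb11, a small heat shock-like protein of intraflagellar transport, rose by 0.29 ± 0.09 in the fit, although its control arrays read 7.84, 7.88 and 7.83 and moved little. It was 0.06 and not called after scaling to the ribosomal proteins, and leaving out any of 4 arrays undid the call as deposited.

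Of 9 Hsp70 and Hsp110 genes tested 2 rose and 2 fell at 5 h as deposited (median 0.005), and 0 rose and 6 fell after scaling to the ribosomal proteins (median −0.225). Hspa8, the constitutive Hsp70, was 13.68, 13.64 and 13.58 at the 3 times under Mbnl1 siRNA, 13.68, 13.64 and 13.58 under Cugbp1 siRNA, and 13.68, 13.69 and 13.61 under control siRNA. The 5 h arrays were the lowest of each arm and the fall was −0.09 ± 0.03 (limma adjusted p = 0.0338). That call was made in 1 of the gene's 3 probe sets, and leaving out any of 8 of the 9 arrays undid it. Hspa2, known from the testis, fell by 0.19 ± 0.05. Hsph1, an Hsp110 exchange factor, was 10.91, 11.05 and 11.16 under Mbnl1 siRNA, 10.92, 11.06 and 11.29 under Cugbp1 siRNA, and 10.86, 10.96 and 11.14 under control siRNA. All arms were highest at 5 h and the rise was 0.30 ± 0.04 (adjusted p = 0.00025), 0.07 and not called with equal ribosomal protein medians. Hspa4l, its relative, rose by 0.24 ± 0.04 (0.01 and not called with that scaling). The stress-inducible Hspa1a was among the 18 members below the filter, with a mean of 7.38 against a filter of 7.385. Hsp90aa1, the stress-inducible cytosolic Hsp90, rose by 0.11 ± 0.04 and fell by 0.12 with equal ribosomal protein medians. Leaving out any of 4 arrays undid the call of the rise.

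Class C J-domain proteins, which share little but the J domain, were the largest group, with 8 of 21 rising and 4 falling at 5 h as deposited (median 0.069). After scaling to the ribosomal proteins 2 were higher and 11 lower (median −0.161). Dnajc15, an inner membrane J protein of mitochondrial import, had levels of 10.68, 10.86 and 11.16 at 0, 2.5 and 5 h under Mbnl1 siRNA, 10.53, 10.77 and 10.88 under Cugbp1 siRNA, and 10.22, 10.46 and 10.71 under control siRNA. Every arm was higher at each later time, Mbnl1 siRNA was highest and control siRNA lowest at each time, and the rise was 0.44 ± 0.04 (limma adjusted p = 6.61e-05), 0.21 with equal ribosomal protein medians (adjusted p = 0.00297). Dnajc19, a subunit of the same import motor, rose by 0.41 ± 0.05, and by 0.18 with that scaling (adjusted p = 0.0143). Dnajc9, a histone co-chaperone, rose by 0.34 ± 0.04 and Dnajc10, an ER reductase, by 0.28 ± 0.04, neither called with that scaling (0.11 and 0.05). Falls were seen for Dnajc5, the cysteine string protein of secretory vesicles (−0.34 ± 0.05), Dnajc14 (−0.32 ± 0.05), Dnajc16 (−0.26 ± 0.05) and Dnajc2, a ribosome-bound J protein (−0.16 ± 0.05). Any of 4 left-out arrays undid the call of Dnajc2. In class A, Dnaja3 of mitochondria fell by 0.21 ± 0.03 and Dnaja4 rose by 0.21 ± 0.05 (−0.02 with that scaling), and Dnaja1 and Dnaja2 were not called as deposited but fell with that scaling (−0.19 and −0.27).

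The chaperonin subunits moved little as deposited. The 7 cytosolic CCT genes tested, whose products form the ring that folds actin and tubulin, changed by between 0.03 and 0.10 at 5 h, and 1 of them was called. That was Cct8 at 0.10 ± 0.04 (limma adjusted p = 0.0393), a call undone by leaving out any of the 9 arrays. With equal ribosomal protein medians all 7 fell, by −0.13 to −0.20. Of the mitochondrial pair behind the shared promoter shown above, Hspe1 rose by 0.23 ± 0.04 and Hspd1 differed by 0.08 ± 0.04 (adjusted p = 0.104), values that are 0.00 and −0.15 with equal ribosomal protein medians, where Hspd1 was called lower.

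Between 2.5 and 5 h 5 members rose and 8 fell, against 4.47% and 17.0% of all genes, 21.4% in all, and the members' median was 0.014, beside −0.002 for all genes. The ribosomal scaling gave 0 higher and 19 lower, with medians of −0.093 for members and −0.108 for all genes. Bag4, Bag5, Dnajb1, Dnajb4, Hsf2 and Hspb8 fell in all 3 comparisons of times, and Dnajc15, Dnajc9 and Hsph1 rose in all 3 as deposited; with equal ribosomal protein medians none of the 5 late rises was called and all 8 late falls were. The late call was undone by leaving out any of 7 arrays for Bag4, 4 for Dnajb4, 4 for Hsph1, 3 for Dnajc15, 2 for Dnajc9 and 1 for Dnajb1, and the call at 2.5 h by any of 6 for Hsph1 and 4 for Dnajc9. No left-out array undid the calls of Bag5, Hsf2 and Hspb8 at these times. The late count of 13 was 5 without the control siRNA array at 2.5 h, 6 without that at 5 h, 6 without the Cugbp1 siRNA array at 2.5 h and 5 without the Mbnl1 siRNA array at 2.5 h. The early count of 23 was 13 without the control siRNA array at 2.5 h, 15 without the Cugbp1 siRNA array at 0 h and 11 without that at 2.5 h.

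Related genes that are not members were counted from a list of 42 symbols, of which 40 were tested. They are co-chaperones, partner genes and some chaperones, such as Cryab and Serpinh1. At 5 h 26 rose and 3 fell (median 0.19), against 35.6% of all genes higher and 32.8% lower (median 0.035). After scaling to the ribosomal proteins 4 rose and 13 fell (median −0.04, beside −0.195 for all genes). The 3 falls as deposited were Grpel2, a nucleotide exchange factor of mitochondrial Hsp70 (−1.18 ± 0.05), Ttc4, a co-chaperone with tetratricopeptide repeats (−0.76 ± 0.05), and Hspbap1 (−0.37 ± 0.06). They measured −1.41, −0.99 and −0.60 with that scaling. The prefoldin-like Pdrg1 (0.58 ± 0.05) and the prefoldin subunit Pfdn5 (0.40 ± 0.05) rose under either scaling (0.35 and 0.17). Of 6 ER chaperone genes kept out of the set 4 rose and 2 fell, and Hspa5 and Dnajb9 were the falls at −0.21 ± 0.05 and −0.31 ± 0.05; after scaling to the ribosomal proteins 0 rose and 2 fell.

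Over the 3 times, Mbnl1 siRNA left 12 of 63 members higher and 13 lower than control siRNA, against 24.0% of all genes higher and 31.0% lower, 55.0% in all. The members' median difference was 0.022, beside −0.021 for all genes. All 25 called members differed in the same direction at each of the 3 times, which a call favours because it rests on the same 3 differences. Hspa13, an Hsp70-related ATPase of the ER, had the largest difference. Its level was 9.61, 9.50 and 9.54 at 0, 2.5 and 5 h under Mbnl1 siRNA, against 10.87, 10.92 and 10.95 under control siRNA, with 10.95, 11.03 and 11.10 under Cugbp1 siRNA. The Mbnl1 siRNA arrays lay far below the others without overlap, at 41.8%, 37.4% and 37.7% of control, and the difference was already present at 0 h. The log2 difference was −1.36 ± 0.05 with 3 arrays per siRNA (± gives the SE, limma adjusted p = 1.39e-06), a 2.57-fold lower level. Dnajc25 read 8.17, 8.24 and 8.20 under Mbnl1 siRNA, against 8.65, 8.87 and 8.86 under control siRNA, with 8.76, 8.85 and 8.96 under Cugbp1 siRNA. Its Mbnl1 siRNA arrays were again below all others, and the difference was −0.59 ± 0.05 (adjusted p = 3.45e-05).

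The other lower members were smaller in size. Dnajc9 (−0.41 ± 0.04), Hspa4l (−0.35 ± 0.04), the small heat shock protein Hspb6 (−0.32 ± 0.05), Dnajc21, a J protein of large ribosomal subunit assembly (−0.30 ± 0.05), and Hspa14 (−0.29 ± 0.05) fell. HSPA14 and the product of Dnajc2 (−0.16 ± 0.05) form the ribosome-associated complex that meets nascent chains. Dnajc19 (−0.23 ± 0.05), Bag5 (−0.20 ± 0.05), Dnajc14 (−0.15 ± 0.05) and Dnajc1 (−0.12 ± 0.04) were lower as well, and Dnajb1 was lower by 0.28 ± 0.10 (adjusted p = 0.0402), a call undone by leaving out any of 5 arrays. Higher members were led by Dnajc15 (0.44 ± 0.04), Dnajc12, a partner of aromatic amino acid hydroxylases (0.37 ± 0.07), Hspb11 (0.33 ± 0.09) and Dnajb14 of the ER membrane (0.32 ± 0.04). Dnajc5 (0.24 ± 0.05), Hsf2 (0.23 ± 0.07), Dnaja4 (0.22 ± 0.05), Dnajc18 (0.21 ± 0.05), Bag3 (0.20 ± 0.04) and Dnajc24 (0.19 ± 0.04) followed, and Bag6 and Dnajc7 were both higher by 0.15. Leaving out any of 5 arrays also undid the calls of Dnajc2 and Dnajc14, any of 4 that of Hsf2, any of 3 that of Hspb11 and either of 2 that of Bag5. None of the 7 CCT subunits, the mitochondrial chaperonin pair or Hsp90aa1 was called. With equal ribosomal protein medians 11 members were higher and 10 lower. The 4 epithelial markers averaged 7.21 to 7.46 over the Mbnl1 siRNA arrays, against 6.90 to 7.09 over the control arrays and 6.82 to 7.0 over the Cugbp1 siRNA arrays, and the 6 macrophage markers 6.34 to 6.57, against 6.12 to 6.26 and 6.18 to 6.27. The 7 myoblast markers averaged 10.31 to 10.58 over the Mbnl1 siRNA arrays, against 10.47 to 10.75 over the control arrays and 10.49 to 10.76 over the Cugbp1 siRNA arrays. Over the 9 arrays Cdh1 had the widest range of the epithelial list (7.27 to 8.81) and Cd68 that of the macrophage list (8.37 to 9.83). The other markers of these lists varied less, such as Krt5 (6.30 to 6.73) and Ptprc (5.57 to 5.72). The part of these cell types in the members' differences was not tested.

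**Figure D3:**
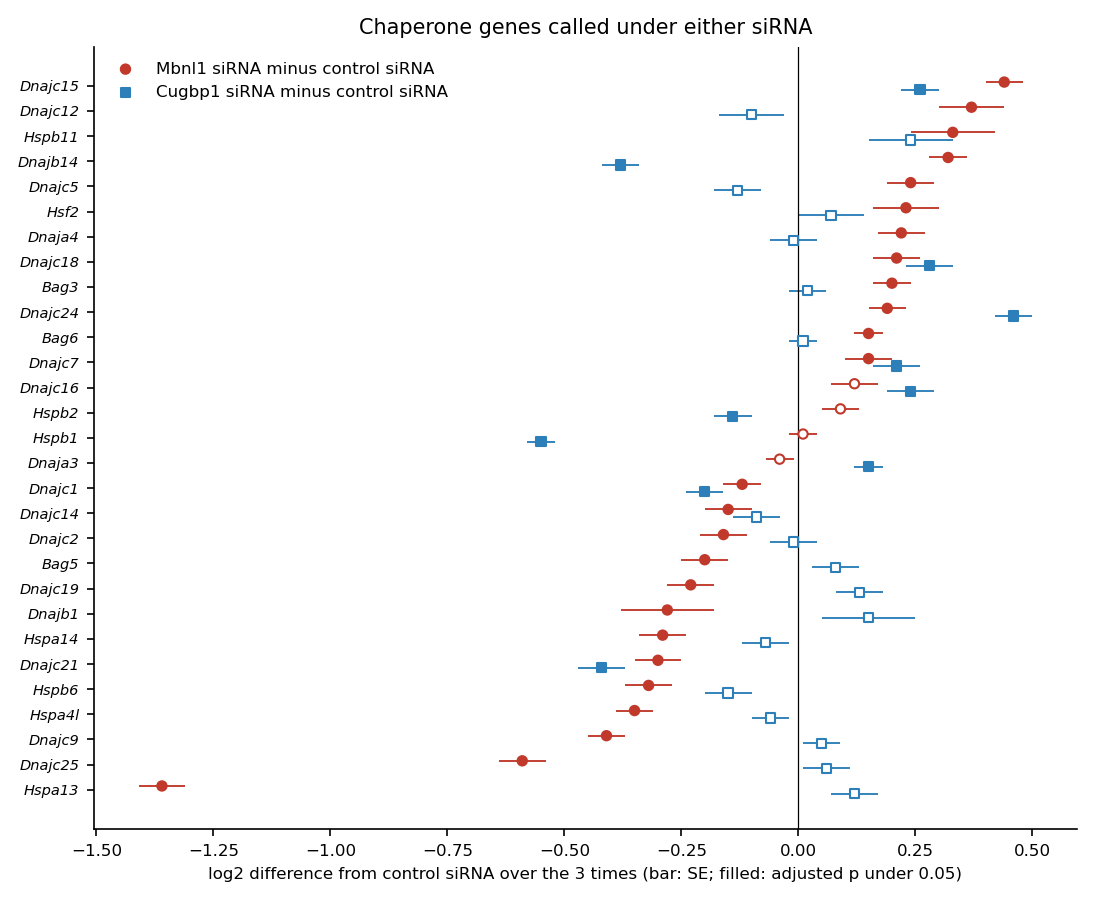
Log2 difference from control siRNA over the 3 times for each member called under at least 1 siRNA, circles for Mbnl1 siRNA and squares for Cugbp1 siRNA, with bars for the SE and filled symbols for adjusted p under 0.05. Hspa13 under Mbnl1 siRNA lies farthest from 0 at −1.36, Hspb1 under Cugbp1 siRNA is at −0.55, and Dnajb14 lies on opposite sides of 0.

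Cugbp1 siRNA left 6 members higher and 5 lower than control siRNA, against 10.5% of all genes higher and 8.67% lower, 19.2% in all, with medians of 0.022 for the members and 0.011 for all genes. Hspb1 differed most. Its level was 12.69, 12.80 and 12.86 at 0, 2.5 and 5 h under Cugbp1 siRNA, against 13.25, 13.36 and 13.40 under control siRNA, with 13.25, 13.36 and 13.42 under Mbnl1 siRNA. The Cugbp1 siRNA arrays lay below all others, at 67.9%, 67.8% and 68.9% of control, while the Mbnl1 siRNA arrays matched control within 0.02. The difference was −0.55 ± 0.03 (limma adjusted p = 7.45e-05), 1.47-fold lower, and the 2 probe sets of the gene gave −0.55 and −0.56. These probe sets were not placed on the genome and may read the same transcript, so their agreement is not independent evidence. Dnajb14 was 8.53, 8.58 and 8.63 under Cugbp1 siRNA, against 8.91, 9.03 and 8.95 under control siRNA, with 9.25, 9.27 and 9.32 under Mbnl1 siRNA. The 3 siRNAs did not overlap: Cugbp1 siRNA was lowest (−0.38 ± 0.04, adjusted p = 0.000865) and Mbnl1 siRNA highest, and the direct difference, Mbnl1 minus Cugbp1 siRNA, was 0.70 ± 0.04 (adjusted p = 7.43e-06). Dnajc24, which supports diphthamide synthesis, was 9.48, 9.76 and 9.80 under Cugbp1 siRNA, against 9.08, 9.27 and 9.30 under control siRNA, with 9.32, 9.43 and 9.47 under Mbnl1 siRNA. At each time it was highest under Cugbp1 siRNA and lowest under control siRNA, and the difference from control was 0.46 ± 0.04 (adjusted p = 0.000562).

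Dnajc21 (−0.42 ± 0.05), Dnajc1 (−0.20 ± 0.04) and Hspb2 (−0.14 ± 0.04) were the other lower members, and Dnajc18 (0.28 ± 0.05), Dnajc15 (0.26 ± 0.04), Dnajc16 (0.24 ± 0.05), Dnajc7 (0.21 ± 0.05) and Dnaja3 (0.15 ± 0.03) the other higher ones. Hspb2 was called at an adjusted p of 0.034 that leaving out any of 7 arrays undid, as did any of 6 for Dnaja3 and any of 4 for Dnajc16. Cryab, the small heat shock gene next to Hspb2 and no member here, was lower under Cugbp1 siRNA by 0.30 ± 0.03 and higher under Mbnl1 siRNA by 0.19 ± 0.03, whereas Hspb2 differed by 0.09 ± 0.04 under Mbnl1 siRNA (adjusted p = 0.0678). No Hsp70, Hsp110, Hsp90, BAG or chaperonin member was called under Cugbp1 siRNA; at unadjusted p under 0.05, limma gave 2 Hsp70 or Hsp110 genes and 1 CCT gene, against 33.2% of all genes. The count of 11 was 5 without the control siRNA array at 2.5 h, and 7 without the control siRNA array at 5 h, the Cugbp1 siRNA array at 2.5 h or that at 5 h. With equal ribosomal protein medians 6 members were higher and 4 lower.

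**Figure D4:**
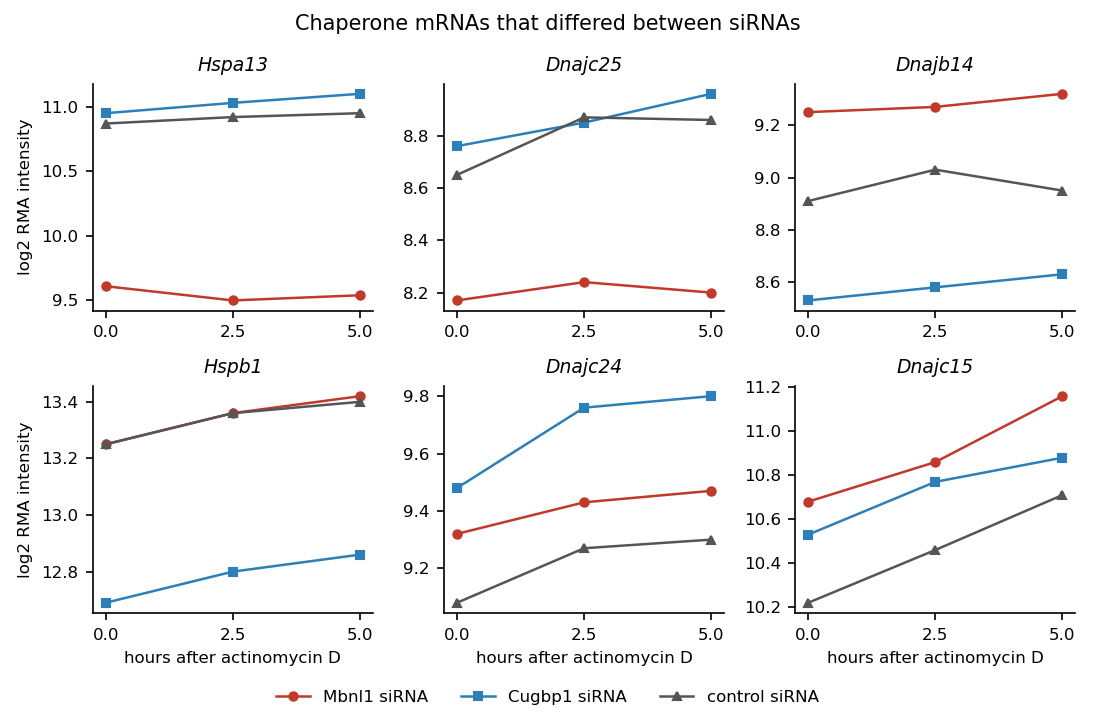
Log2 RMA intensity on each of the 9 arrays against hours after actinomycin D for 6 members that differed between siRNAs, 1 line per siRNA and 1 point per array; the vertical axes differ between panels and do not start at 0. Hspa13 and Dnajc25 are low under Mbnl1 siRNA, Hspb1 is low under Cugbp1 siRNA, and Dnajb14 separates all 3 siRNAs.

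The knockdowns share the control arrays, so their values are given side by side. Of 7 members called under both, Dnajc1, Dnajc7, Dnajc15, Dnajc18, Dnajc21 and Dnajc24 had the same sign and Dnajb14 the opposite one. Shared control arrays favour the same sign in any gene, and this overlap was not counted over all genes. Leaving out any of 6 arrays undid the call of Dnajc7 under Mbnl1 siRNA and any of 5 that under Cugbp1 siRNA; for Dnajc1 these were 5 and 2 arrays, and for Dnajc18 0 and 1. Set directly against each other, Mbnl1 siRNA and Cugbp1 siRNA differed in 25 members, 10 higher and 15 lower under Mbnl1 siRNA, against 23.0% and 33.4% of all genes, 56.4% in all, with medians of −0.021 for the members and −0.032 for all genes. Hspa13 (−1.48 ± 0.05), Dnajc25 (−0.65 ± 0.05) and Dnajc9 (−0.46 ± 0.04) were lower, and Dnajb14, Hspb1 (0.56 ± 0.03), Dnajc12 (0.47 ± 0.07), Dnajc5 (0.37 ± 0.05) and Hspb2 (0.23 ± 0.04) higher. Of the members that fell at 5 h, Dnajb1 (−0.43 ± 0.10), Dnajb4 (−0.17 ± 0.04), Bag5 (−0.28 ± 0.05), Dnaja3 (−0.19) and Dnajc2 (−0.14) were lower under Mbnl1 siRNA than under Cugbp1 siRNA. Leaving out any of 7 arrays undid this call of Dnajc2. Dnajc5, which also fell, was higher, and Hsf2 (0.16) and the others that fell, such as Hspb8 and Dnajb5, were not called here. Dnajc21 did not pass this test (0.12 ± 0.05, adjusted p = 0.0556). Among the 40 related genes tested from the list of co-chaperones, partners and some chaperones, 13 were higher and 9 lower under Mbnl1 siRNA than under control siRNA. The shares of all genes were 24.0% and 31.0%. Under Cugbp1 siRNA 3 were higher and 2 lower, against 10.5% and 8.67%. Serpinh1, the collagen chaperone, stood at −0.99 ± 0.05 under Mbnl1 siRNA and −0.05 ± 0.05 under Cugbp1 siRNA (limma adjusted p = 0.521). The Hsp70 partner St13 was higher under both, by 0.38 ± 0.05 and 0.24 ± 0.05.

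For decay itself, the hourly log2 slope of each knockdown was compared with that of control. By limma 0 of 63 members were called under Mbnl1 siRNA, where 0.0203% of all genes were, and 0 under Cugbp1 siRNA, where 0.0% were. At unadjusted p under 0.05 the counts were 3 and 8, against 13.8% and 11.4% of all genes. The members' median slope differences were 0.005 and 0.017 per h, beside 0.001 and 0.009 for all genes. Hsf2 had the largest t statistic under Mbnl1 siRNA, with a slope difference of 0.073 ± 0.019 per h (adjusted p = 0.181), and its 61.2% left at 5 h stood beside 47.5% under control siRNA. Dnajb1 had the largest under Cugbp1 siRNA, 0.114 ± 0.026 per h (adjusted p = 0.32), with 38.4% left at 5 h beside 25.9%. Hspb11 was second under either siRNA, at 0.073 ± 0.024 and 0.103 ± 0.024 per h (adjusted p = 0.252 and 0.32). Hspa13 and Hspb1, the members with the largest differences in level, had slope differences of −0.030 ± 0.018 per h under Mbnl1 siRNA (adjusted p = 0.54) and 0.004 ± 0.016 per h under Cugbp1 siRNA (adjusted p = 0.943). A slope that misses the threshold with 2 residual degrees of freedom does not show equal decay.

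Across all 8 comparisons 47 of 63 members (74.6%) were called in at least 1 and 16 in none, as deposited, against 89.2% of all genes called in at least 1. The 16 were Bag2, Cct2, Cct3, Cct4, Cct5, Cct6a, Cct7, Dnaja1, Dnaja2, Dnajc13, Dnajc17, Dnajc30, Hspa4, Hspa9, Hspa12a and Hspb9. They include the mitochondrial Hsp70 Hspa9 and most of the cytosolic chaperonin, and a missed call does not show that they did not differ.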

How the data were processed

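The deposited series table holds 35556 probe sets on 9 arrays. Per the labels' protocols, the labelling of 100 ng of total RNA used biotin and Affymetrix whole-transcript kits, and per the submitters' processing notes the authors made the values with RMA in Affymetrix Expression Console. No source used here gives versions or a genome build. The range of the deposited values shows that they are RMA intensity before any log, so log2 was taken here.

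Probe sets with 1 symbol (21789, against 1621 with several and 12146 with none) gave 19938 genes. The brightest probe set stood for a gene that had more than 1, and genes whose mean log2 reached 7.385 (an intensity of 167.1, the 50th percentile over probe sets with a name) were tested. Near-identical gene copies may share probe signal, and their part was not tested. The test of levels and times was limma 3.58.1 (R 4.3.3, lmFit and eBayes, with siRNA and time as factors and 4 residual degrees of freedom), and that of decay added a straight line in hours for each knockdown (2 residual degrees of freedom). Called genes had an adjusted p (Benjamini-Hochberg, over all 9864) under 0.05, and the scripts were tested on simulated data. Named were, per comparison, the 10 largest called rises and falls among the members, the 5 largest t statistics where fewer than 5 were called, and fixed family members; further called members are named where they complete a group. Promoters came from RefSeq (GRCm38.p6). The members and gene lists were chosen with earlier results of these data known. Alternatives were other filters, scaling to ribosomal proteins, single probe sets, an intensity trend, fewer arrays, a linear time course and leaving out each array.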

Additional observations from a re-analysis of the deposited data

How the results depend on the processing

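Of the calls named for single members, none changed sign except under equal ribosomal protein medians, where 13 did. At 5 h these were Bag6 (−0.05), Cct8 (−0.13), Dnaja4 (−0.02), Dnajb2 (−0.00), Dnajc24 (−0.00), Dnajc25 (−0.09), Dnajc8 (−0.01), Hsp90aa1 (−0.12), Hspb1 (−0.07), Hspb2 (−0.09) and Hspb6 (−0.02), and at 2.5 h Cct8 (−0.02) and Hspb1 (−0.02). Among the 133 such calls, 37 lost significance with no filter, where more genes are tested, and 21 with a 25th percentile filter. An intensity trend undid 3 and a fit of only the 6 arrays compared undid 10. Under ribosomal scaling 29 lost significance without a change of sign, beside the 13 that changed sign. Of those 13, 2 were called in the new direction, Cct8 and Hsp90aa1 at 5 h, and the others were not called. Leaving out at least 1 of the arrays undid 48 of the 133: 8 of 25 for Mbnl1 siRNA against control, 6 of 11 for Cugbp1 siRNA against control, 5 of 25 for Mbnl1 against Cugbp1 siRNA, 12 of 23 at 2.5 h, 7 of 36 at 5 h and 10 of 13 for 5 h against 2.5 h. Without a filter the count of members called was 6 for Cugbp1 siRNA against control and 7 for 5 h against 2.5 h. With 1 array left out in turn the counts ran from 19 to 27 for Mbnl1 siRNA against control, 5 to 12 for Cugbp1 siRNA against control, 20 to 26 for Mbnl1 against Cugbp1 siRNA, 11 to 24 at 2.5 h, 30 to 35 at 5 h, 5 to 16 for 5 h against 2.5 h, and 0 to 0 for either decay. The cause of these shifts was not tested. No paired analysis was possible because the labels give no replicate numbers to block on; the model itself compares siRNAs within times and times within siRNAs. With 1 array per siRNA and time, small changes and dim genes are measured least reliably.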

Other observations

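The 18 members below the intensity filter had means between 3.86 and 7.38 on the log2 scale, and the lowest member that passed had 7.51. They were Hspa1a, Hspa1l, Hspa12b, Hspb3, Hspb7, Cct6b, Cct8l1, Dnajb3, Dnajb6, Dnajb7, Dnajb8, Dnajb13, Dnajc5b, Dnajc5g, Dnajc6, Dnajc22, Dnajc27 and Dnajc28. Tested with all named genes and no filter, 4 of them were called by limma in at least 1 comparison. The share of all named genes called without the filter was not counted, so the 4 have no background to stand beside. Hspa1a, the stress-inducible Hsp70 whose near-identical neighbour Hspa1b was not analysed here, read 7.43, 7.20 and 7.18 at 0, 2.5 and 5 h under Mbnl1 siRNA, 7.78, 7.38 and 7.34 under Cugbp1 siRNA, and 7.50, 7.43 and 7.21 under control siRNA. It was lowest at 5 h in each arm, with a change of −0.32 ± 0.07 at 5 h (SE, n = 3 arrays per time, adjusted p = 0.00678), and it was lower under Mbnl1 siRNA than under Cugbp1 siRNA (−0.23 ± 0.07, adjusted p = 0.0379). Dnajc27 was lower at 2.5 h (−0.25 ± 0.06), Dnajc28 lower at 5 h (−0.23 ± 0.05) and Cct6b, a testis relative of Cct6a, higher at 5 h (0.22 ± 0.06). The members below the filter were not tested with equal ribosomal protein medians. At this brightness the sizes may be too small, which was not tested.

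Dnajc13, which works in endosomes, had 15 probe sets. None was called lower at 5 h and 6 of the 15 were called higher, in a range from 0.01 to 0.31, while the gene's brightest probe set was not called. Of all genes tested 35.6% were higher at 5 h, and the share over single probe sets was not counted. Single probe sets were not tested with equal ribosomal protein medians, under which most rises of members at 5 h were lost.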
